A study of Mus musculus with 12 samples.

Results

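The Toll-like receptors of mouse macrophages and CD14 were examined as a set of 10 genes, chosen by name: Tlr1, Tlr2, Tlr3, Tlr4, Tlr6, Tlr7, Tlr8, Tlr9, Tlr13 and Cd14. All 10 were found among the 38887 genes of each deposited table, and all 10 were among the 12846 genes with enough counts to be tested. The 12 RNA-Seq libraries came from bone marrow-derived macrophages (BMMs) in 4 groups of 3, which were untreated (M0) and IL-4-treated (M2) cells of WT and KO mice. M0 cells were left untreated, and M2 cells received 20 ng/ml IL-4 for 8 h. All mice were 3 to 4 months old, and all cultures were differentiated with M-CSF. KO mice had loxP sites around exons 4 and 5 of Igf2bp2 and expressed Cre from the Lyz2 locus, which is active in myeloid cells. The WT controls were littermates with unfloxed Igf2bp2, some with and some without Cre. IGF2BP2 is an RNA-binding protein that binds mRNAs and affects their stability and translation.

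Toll-like receptors (TLRs) recognize conserved parts of microbes and signal through the adaptors MyD88 and TRIF to NF-kappaB and interferon regulatory factors. Tlr1, Tlr2, Tlr4 and Tlr6 encode receptors of the cell surface, whereas Tlr3, Tlr7, Tlr8, Tlr9 and Tlr13 encode receptors for nucleic acids in endosomes. CD14 is a co-receptor that hands lipopolysaccharide to TLR4 with its partner MD-2 (encoded by Ly96) and also serves TLR2. IL-4 signals through STAT6 and drives macrophages towards the M2 state.

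RefSeq promoter sequences of GRCm38.p6, which run from 250 bases before to 50 bases after a start site, were used for 7 of the 10 genes. Tlr4 and Tlr7 had no entry, and the promoter of Cd14 was not used here. The promoters of Tlr2 and Tlr8 are printed because, among these 7 genes, they belong to the gene that fell most and the gene that rose most after IL-4 in WT BMMs. The Tlr2 promoter, chr3:83841559-83841858 on the minus strand, has matches to the NF-kappaB motif in capitals, of which 2 overlap. Their first bases lie at -173, -172 and -8, counted from the start site as 0.
Tlr2 promoter: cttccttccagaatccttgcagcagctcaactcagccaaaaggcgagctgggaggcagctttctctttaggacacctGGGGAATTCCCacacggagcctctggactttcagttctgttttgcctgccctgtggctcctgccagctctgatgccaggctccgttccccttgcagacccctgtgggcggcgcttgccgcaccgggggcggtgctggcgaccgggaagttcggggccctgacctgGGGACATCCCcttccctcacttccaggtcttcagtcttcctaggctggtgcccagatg
The Tlr8 promoter, chrX:167264280-167264579 on the minus strand, has 1 match in capitals, at -77, to the STAT6 motif TTCNNNNGAA.
Tlr8 promoter: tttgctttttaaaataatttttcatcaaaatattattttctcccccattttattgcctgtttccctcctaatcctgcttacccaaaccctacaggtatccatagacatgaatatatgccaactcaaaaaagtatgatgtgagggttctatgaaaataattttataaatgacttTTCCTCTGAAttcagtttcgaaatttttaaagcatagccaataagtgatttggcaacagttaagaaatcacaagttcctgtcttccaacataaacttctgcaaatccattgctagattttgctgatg
Both strands were searched. Of 32851 mouse promoters of this length, 8.46% hold the NF-kappaB motif and 6.95% the STAT6 motif. Among the other promoters of the set, the NF-kappaB motif occurred once, in Tlr3 at -211, and the STAT6 motif did not occur. The motif TTCNNNGAA, which 8.30% of promoters hold, was found in Tlr8 at -106, in the second Tlr6 promoter at -3 and 7 and in the second Tlr1 promoter at -228. The PU.1 motif GAGGAAGT (3.20% of promoters) was found in Tlr1 at -23 and, on the other strand, in Tlr9 at 10. These matches are letters in a window and were not tested for binding.

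Tlr1 (chr5:64924679-64933563, minus strand) and Tlr6 (chr5:64952031-64960097, minus strand) are neighbouring paralogs, and reads from stretches they share have to be divided between them. Of the stretches of 75 bases, the read length, 340 occurred in both genes, which is 10.3% of those of Tlr1 and 9.25% of those of Tlr6. The deposited posterior standard deviation of the count never exceeded 10.15 reads in either gene, or 2.03% of the count of Tlr6. For the other 8 genes it was 0, and no other pair of the set shared such a stretch. Tlr3 overlaps the gene Gm45542 on the opposite strand. Counts per library reached from 54 to 220 for Tlr9, the least abundant gene, and from 1375 upwards for Cd14.

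Library totals ranged from 20011792 counts in WT M2 to 39632770 in KO M2. The counts were expressed as CPM (counts relative to the library total, scaled by TMM factors) for comparisons of 1 gene between libraries and as TPM (transcript abundance, which also accounts for length) for comparisons between genes. Igf2bp2, the targeted gene, had 118, 99.7 and 76.5 CPM in WT M0 and 95.9, 84.9 and 91.6 CPM in KO M0. The groups overlapped (log2 fold change -0.11, SE 0.13, edgeR adjusted p = 0.656). In M2 the value was lower in KO (-0.65, SE 0.13, edgeR adjusted p = 0.0285). Whole-gene counts include any remaining exons and were not split by exon, so they do not check the deletion in M0. The study itself reports that Igf2bp2 mRNA and protein were nearly undetectable in KO BMMs. Lyz2 had 7030 to 10540 CPM in WT M0 and 22.1 to 33.2 CPM in KO M0, so all libraries followed their genotype label at the locus that carries Cre. The loss of Lyz2 and the deletion in Igf2bp2 occurred in the same mice and cannot be told apart. The summed level of 6 macrophage markers was 4327 to 4716 CPM in WT M0 and 4720 to 4822 CPM in KO M0, and 5254 to 5625 CPM in WT M2 and 5265 to 5473 CPM in KO M2. That of 6 stromal markers was 31.2 to 54.9 CPM in WT M0 and 8.27 to 31.7 CPM in KO M0, and 33.8 to 61.3 CPM in WT M2 and 9.45 to 27.8 CPM in KO M2. Pdgfra was under 1 CPM. Of 6 neutrophil markers the sum was 6.58 to 16.4 CPM in WT M0 and 4.56 to 4.80 CPM in KO M0, with Ly6g at 0. The part of these cells and markers in the genotype differences below was not tested. For plasmacytoid dendritic cells, which are rich in Tlr7 and Tlr9, Siglech, Ccr9 and Spib were under 1 CPM and Klk1 was at 0. The other 2 of the 6 markers, which are not particular to these cells, were Irf8 with 104 to 172 CPM and Tcf4 with 49.8 to 60.9 CPM, and the summed level of the list was 155 to 230 CPM. In bulk RNA, fewer cells of a type and less RNA per cell cannot be told apart.

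In WT M0 macrophages Cd14 was the most abundant of the 10 transcripts, at 756 ± 64.4 TPM (mean ± SD, n = 3). Tlr13, the receptor for a stretch of bacterial ribosomal RNA, followed with 178 ± 31.1 TPM, and Tlr2, the receptor for lipoproteins, with 125.5 ± 12.3 TPM. Tlr4 (36.7 ± 3.82 TPM) and Tlr7 (33.9 ± 2.24 TPM) overlapped in their ranges, and so did Tlr8 (20.7 ± 4.38 TPM) and Tlr1 (17.2 ± 1.55 TPM). Lowest were Tlr6 (7.06 ± 0.248 TPM), Tlr3 (5.72 ± 0.0702 TPM) and Tlr9 (3.18 ± 0.472 TPM), which did not overlap.

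After IL-4 this order was a different one. In WT M2, Tlr13 was first with 109 ± 10.4 TPM, and Cd14 (85.2 ± 5.42 TPM), Tlr8 (81.7 ± 3.56 TPM) and Tlr4 (81.5 ± 6.19 TPM) had overlapping ranges behind it. Tlr1 (66.5 ± 5.30 TPM), Tlr7 (51.9 ± 3.74 TPM) and Tlr6 (12.1 ± 0.356 TPM) came next without overlap. Tlr2, the third most abundant in WT M0, stood at 4.72 ± 0.705 TPM and overlapped with Tlr3 (5.08 ± 0.401 TPM), and only Tlr9 (1.92 ± 0.442 TPM) was lower.

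**Figure D1:**
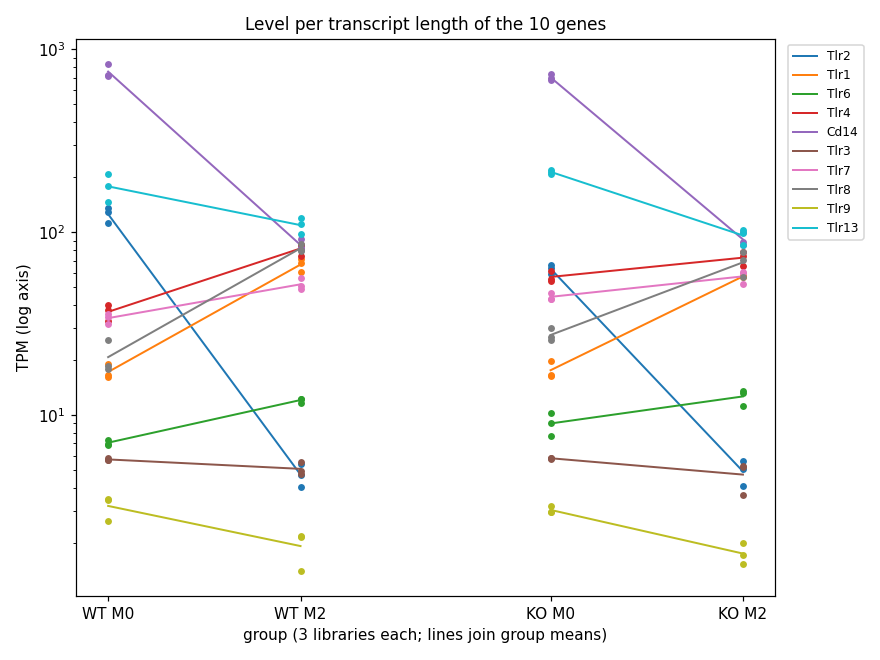
Level of the 10 genes in TPM (log axis) by group, with 3 libraries per group as points and lines between the group means of 1 genotype. Tlr2 fell from 125.5 to 4.72 TPM in WT and crossed Tlr4, Tlr7, Tlr8, Tlr1 and Tlr6, and Cd14 fell from 756 to 85.2 TPM.

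KO M0 macrophages had the same first and last genes as WT M0. Cd14 was at 703 ± 28.9 TPM, Tlr13 at 214 ± 5.08 TPM and Tlr9 at 3.03 ± 0.150 TPM. Tlr2 (63.2 ± 3.54 TPM) overlapped with Tlr4 (56.9 ± 3.64 TPM) there, whereas the pair did not overlap in WT M0. In KO M2, Tlr13 (96.0 ± 9.31 TPM) overlapped with Cd14 (91.4 ± 8.11 TPM). Tlr4 (72.6 ± 6.56 TPM) overlapped with Tlr8 (68.4 ± 10.5 TPM), Tlr8 with Tlr7 (57.3 ± 4.82 TPM) and Tlr7 with Tlr1 (57.3 ± 0.590 TPM).

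TLR2 works as a heterodimer with TLR1 or TLR6, and the balance of these transcripts turned over with IL-4. The TPM of Tlr2 over Tlr1 was 6.76, 7.15 and 8.03 in the WT M0 libraries and 3.22, 4.02 and 3.62 in KO M0. In M2 the ratio was the other way round, as Tlr1 exceeded Tlr2 by 14.4, 17.7 and 11.2 times in WT and by 14.1, 10.4 and 11.1 times in KO. Tlr6, at 1 part in 15.3 to 19.8 of Tlr2 in WT M0, exceeded Tlr2 by 2.26 to 2.90 times in WT M2. The mean ratio of Cd14 to Tlr4 was 20.9 in untreated WT and 12.4 in untreated KO cells, and 1.05 and 1.26 after IL-4. Tlr8 was below Tlr7 in M0 (mean ratio 0.610 in WT and 0.618 in KO) and above it in M2 (1.58 and 1.19). These ratios are a description without a test.

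The first comparison asked how IL-4 changed the set in WT macrophages. Of the 10 genes 9 passed the test, against 50.0% of all genes tested, and 5 were higher (24.9% of all genes) and 4 lower (25.1% of all genes). The median log2 fold change of the 10 was 0.29, beside -0.01 over all genes. Markers of other cells moved in the same comparison, as the neutrophil markers Ngp (-1.28, edgeR adjusted p = 0.0230) and S100a9 (-0.75, edgeR adjusted p = 0.0485) fell and the dendritic cell marker Zbtb46 rose (2.54, edgeR adjusted p = 1.32e-05), from 0.194 to 0.329 CPM to 1.38 to 2.11 CPM. The other 5 conventional dendritic cell markers were under 1 CPM. Zbtb46 itself was near the floor in M0 of both genotypes, so it entered the tests through its M2 level. Of the macrophage markers Adgre1, Csf1r, Itgam and Mertk rose (0.17 to 0.64) and Fcgr1 fell (-1.03). The part of these changes in the IL-4 responses was not tested.

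Among the surface receptors Tlr2 fell most. It had 177, 218 and 219 CPM in WT M0 and 8.00, 6.86 and 9.20 CPM in WT M2. All M2 libraries lay far below all M0 libraries, at 25.5-fold lower (log2 fold change -4.67, SE 0.12, edgeR adjusted p = 1.72e-11). Tlr1, its partner for triacylated lipopeptides, had 22.9, 26.7 and 23.9 CPM in WT M0 and 100.5, 106 and 90.2 CPM in WT M2. Tlr1 thus rose 4.04-fold (log2 fold change 2.01, SE 0.08, edgeR adjusted p = 9.07e-10) without overlap. Tlr6, the partner for diacylated lipopeptides, had 9.96, 9.46 and 10.2 CPM in WT M0 and 17.9, 17.1 and 17.9 CPM in WT M2. It rose 1.79-fold (log2 fold change 0.84, SE 0.10, edgeR adjusted p = 1.62e-05). Tlr4, the receptor for lipopolysaccharide, had 85.7, 77.7 and 74.7 CPM in WT M0 and 170.3, 190 and 190.0 CPM in WT M2. Its rise was 2.31-fold (log2 fold change 1.21, SE 0.06, edgeR adjusted p = 7.55e-09), so that all surface receptor genes of the set but Tlr2 rose.

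Cd14, in contrast to Tlr4, fell. The WT M0 libraries had 582, 580.0 and 715 CPM and the WT M2 libraries 78.6, 70.9 and 70.8 CPM. This was 8.52-fold lower (log2 fold change -3.09, SE 0.09, edgeR adjusted p = 4.21e-11).

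The receptors for nucleic acids moved in both directions. Tlr8, which senses RNA, had 38.1, 31.9 and 27.3 CPM in WT M0 and 135, 141 and 135 CPM in WT M2. It rose 4.21-fold (log2 fold change 2.08, SE 0.11, edgeR adjusted p = 1.08e-08), the largest rise of the 10 genes in this comparison. Tlr7, a receptor for single-stranded RNA that lies beside Tlr8 on chromosome X, had 61.8, 57.5 and 56.9 CPM in WT M0 and 89.8, 95.2 and 99.7 CPM in WT M2, a 1.61-fold rise (log2 fold change 0.69, SE 0.06, edgeR adjusted p = 5.15e-07). Tlr13 had 446, 388 and 336 CPM in WT M0 and 273.5, 255.5 and 226 CPM in WT M2. Its level fell 1.55-fold (log2 fold change -0.63, SE 0.09, edgeR adjusted p = 1.15e-04), with no overlap between the groups. Tlr9, the receptor for unmethylated CpG DNA, had 6.37, 6.34 and 5.18 CPM in WT M0 and 4.23, 2.78 and 4.29 CPM in WT M2, and the log2 fold change was -0.66 (SE 0.16, edgeR adjusted p = 0.00474). Tlr3, the receptor for double-stranded RNA, had 12.9, 13.4 and 14.0 CPM in WT M0 and 11.6, 12.3 and 13.6 CPM in WT M2. The ranges overlapped, and Tlr3 was the 1 gene of the set that did not pass (log2 fold change -0.11, SE 0.11, edgeR adjusted p = 0.439).

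**Figure D2:**
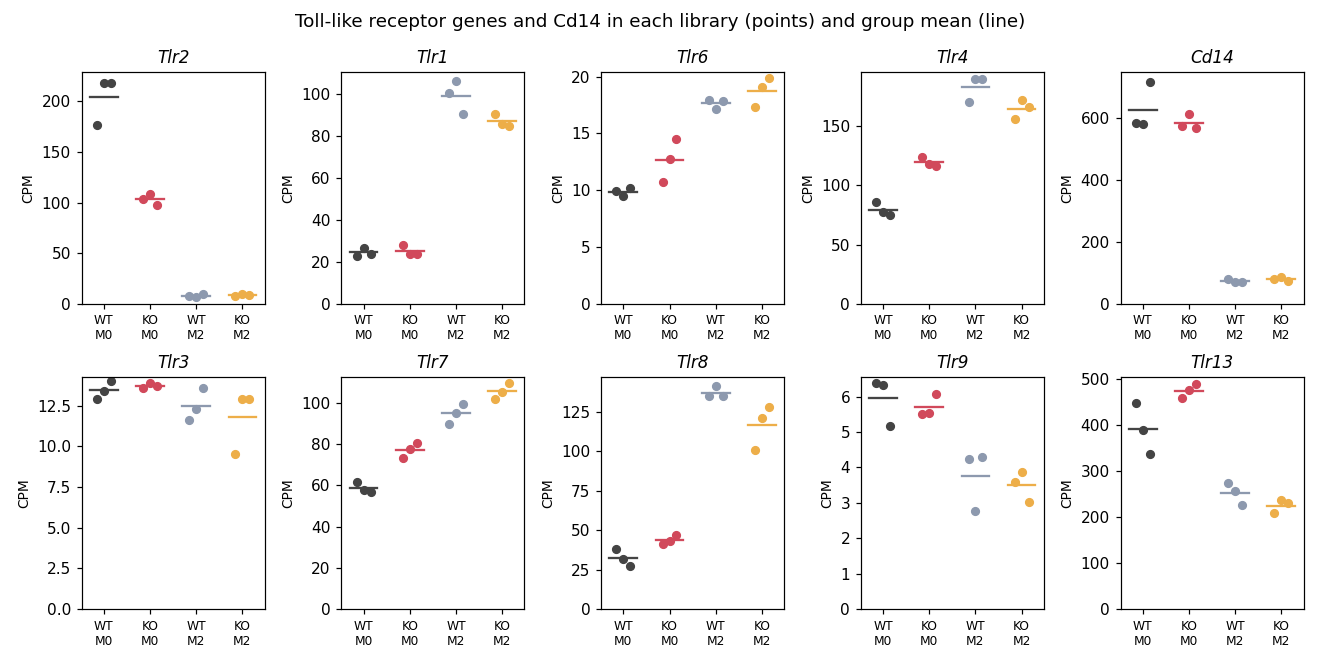
CPM of each gene in the 12 libraries (points) with the group mean (line), on axes that start at 0. IL-4 left all M2 libraries of Tlr2 between 6.86 and 9.42 CPM, and in M0 the KO libraries of Tlr4 (117 to 124 CPM) lie above those of WT (74.7 to 85.7 CPM).

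In KO macrophages IL-4 changed 9 of the 10 genes, against 52.8% of all genes, with 5 higher (26.8% of all genes) and 4 lower (26.0% of all genes). The median log2 fold change of the 10 was 0.12, beside 0.01 over all genes. Zbtb46 rose here as well (2.45, edgeR adjusted p = 9.23e-06), as did Irf8 (0.54, edgeR adjusted p = 4.29e-05) and the B cell marker Cd79b (0.42, edgeR adjusted p = 0.0237), and the 3 neutrophil markers tested did not pass. Of the macrophage markers Adgre1 (0.51) and Csf1r (0.19) rose and Fcgr1 fell (-1.14). Itgam, Mertk and Cd68 did not pass. Tlr2 had 103, 109 and 97.6 CPM in KO M0 and 7.31, 9.42 and 8.67 CPM in KO M2, which was 12.1-fold lower (log2 fold change -3.60, SE 0.12, edgeR adjusted p = 8.09e-11). Cd14 fell 7.27-fold, from 572, 612 and 567 CPM to 80.9, 86.2 and 73.7 CPM (log2 fold change -2.86, SE 0.09, edgeR adjusted p = 7.15e-11). Tlr13 had 458, 474.5 and 489 CPM in KO M0 and 208, 235.5 and 230.2 CPM in KO M2 and fell 2.11-fold (log2 fold change -1.08, SE 0.10, edgeR adjusted p = 8.85e-07). The fourth gene that fell was Tlr9, with 5.51 to 6.09 CPM in KO M0 and 3.02 to 3.88 CPM in KO M2 (log2 fold change -0.71, SE 0.16, edgeR adjusted p = 0.00204).

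The genes that rose in KO were those that rose in WT. Tlr1 had 28.1, 23.7 and 23.7 CPM in KO M0 and 90.4, 85.5 and 84.7 CPM in KO M2 (log2 fold change 1.79, SE 0.08, edgeR adjusted p = 2.29e-09). Tlr8 had 41.0, 43.2 and 47.1 CPM in KO M0 and 101, 121 and 128 CPM in KO M2 (log2 fold change 1.41, SE 0.11, edgeR adjusted p = 2.69e-07). The first KO M2 library was the lowest of the M2 libraries for Tlr8. Tlr6 rose from 10.7 to 14.5 CPM to 17.3 to 19.9 CPM (log2 fold change 0.57, SE 0.09, edgeR adjusted p = 2.40e-04), and Tlr7 from 73.4 to 80.5 CPM to 102 to 110 CPM (log2 fold change 0.45, SE 0.06, edgeR adjusted p = 1.69e-05). Tlr4 had 124, 118 and 117 CPM in KO M0 and 156, 172 and 166 CPM in KO M2, which was 1.38-fold higher (log2 fold change 0.46, SE 0.06, edgeR adjusted p = 3.74e-05). Tlr3 had 13.6 to 13.9 CPM in KO M0 and 9.53 to 12.9 CPM in KO M2. These ranges did not overlap, but the gene did not pass (log2 fold change -0.21, SE 0.10, edgeR adjusted p = 0.0994).

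The second comparison asked how untreated KO macrophages differed from untreated WT macrophages. In M0, 5 of the 10 genes passed the test, against 9.78% of all genes. Tlr4, Tlr6, Tlr7 and Tlr8 were higher in KO (4 of 10, against 5.50% of all genes) and Tlr2 was lower (1 of 10, against 4.27% of all genes). The median log2 fold change of the 10 was 0.16, beside 0.00 over all genes. In the same comparison the neutrophil markers S100a9 (log2 fold change -1.38, edgeR adjusted p = 0.0124) and Ngp (-1.82, edgeR adjusted p = 0.0180) were lower in KO, and S100a8 did not pass (-0.95, edgeR adjusted p = 0.178). The 5 tested stromal markers did not pass (edgeR adjusted p from 0.204 to 0.438), and their log2 fold changes were -1.13 to -0.57. Of the 6 macrophage markers 1, Itgam, was higher in KO M0 (0.45, SE 0.08, edgeR adjusted p = 0.00396), and the other 5 did not pass.

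Tlr2 fell to 103, 109 and 97.6 CPM in KO M0 from 177, 218 and 219 CPM in WT M0. All KO libraries lay below all WT libraries, at 1.98-fold lower (log2 fold change -0.99, SE 0.10, edgeR adjusted p = 1.64e-04). Tlr4 moved the other way, with 124, 118 and 117 CPM in KO against 85.7, 77.7 and 74.7 CPM in WT (log2 fold change 0.59, SE 0.06, edgeR adjusted p = 2.84e-04). Tlr7 had 73.4, 77.4 and 80.5 CPM in KO against 61.8, 57.5 and 56.9 CPM in WT (log2 fold change 0.39, SE 0.06, edgeR adjusted p = 0.00160). For Tlr2, Tlr4 and Tlr7 the groups did not overlap, and the calls held in all alternatives and without any 1 library.

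Tlr8 and Tlr6 were weaker calls. Tlr8 had 41.0, 43.2 and 47.1 CPM in KO against 38.1, 31.9 and 27.3 CPM in WT (log2 fold change 0.43, SE 0.11, edgeR adjusted p = 0.0309). Without WT M0 replicate 2 or 3 or KO M0 replicate 1, 2 or 3 the edgeR adjusted p was 0.0509 to 0.118. Tlr6 had 10.7, 12.7 and 14.5 CPM in KO against 9.96, 9.46 and 10.2 CPM in WT (log2 fold change 0.36, SE 0.10, edgeR adjusted p = 0.0367). Its call was lost without WT M0 replicate 1 or 2, KO M0 replicate 2 or 3, WT M2 replicate 2 or KO M2 replicate 2 (edgeR adjusted p from 0.0521 to 0.150). With limma on log2(TPM + 1) neither gene passed, at adjusted p = 0.108 for Tlr8 and 0.109 for Tlr6, nor with only the 2 groups (edgeR adjusted p = 0.0586 and 0.0946).

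The other 5 genes of the set did not pass in M0 with edgeR. Tlr13 had 458, 474.5 and 489 CPM in KO and 446, 388 and 336 CPM in WT, groups that did not overlap (log2 fold change 0.28, SE 0.09, edgeR adjusted p = 0.0807). Tlr13 passed with DESeq2 (adjusted p = 0.0351), without a filter on low counts (edgeR adjusted p = 0.0491) and without WT M0 replicate 1, the highest of its group (edgeR adjusted p = 0.0182). Cd14 had overlapping groups (log2 fold change -0.10, SE 0.08, edgeR adjusted p = 0.493). So had Tlr1 (0.03, SE 0.09), Tlr3 (0.03, SE 0.10) and Tlr9 (-0.06, SE 0.15), with edgeR adjusted p of 0.850, 0.888 and 0.842.

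In M2, 0 of the 10 genes passed between KO and WT with edgeR, against 2.68% of all genes (1.21% higher and 1.46% lower). DESeq2 and limma called 0 of them as well. At an unadjusted p under 0.05 there were 4, namely Tlr7 (log2 fold change 0.16, SE 0.06), Tlr4 (-0.16, SE 0.06), Tlr1 (-0.19, SE 0.08) and Tlr8 (-0.23, SE 0.11). Their edgeR adjusted p lay between 0.148 and 0.242. Tlr7 (102 to 110 CPM in KO, 89.8 to 99.7 CPM in WT) and Tlr8 (101 to 128 CPM in KO, 135 to 141 CPM in WT) did not overlap. Tlr2 had 7.31 to 9.42 CPM in KO and 6.86 to 9.20 CPM in WT, and its log2 fold change of 0.09 had an SE of 0.14. The remaining log2 fold changes were 0.13 for Cd14, 0.09 for Tlr6, -0.08 for Tlr3, -0.11 for Tlr9 and -0.16 for Tlr13, all with overlapping groups. These values do not show that the genotypes had equal levels in M2.

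**Figure D3:**
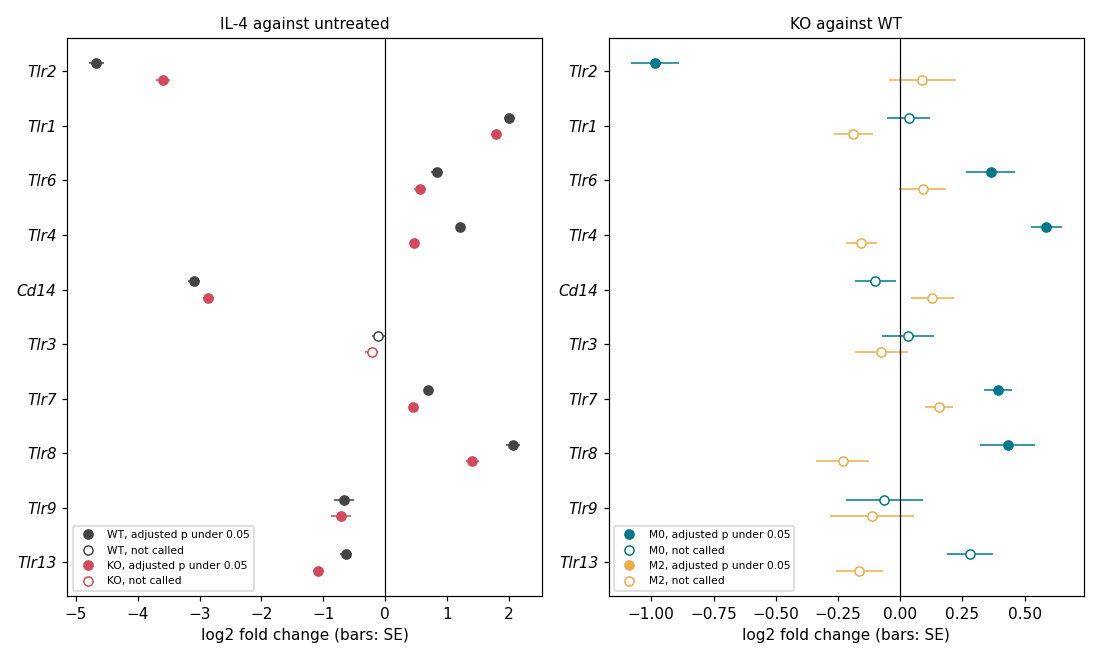
Log2 fold change with its SE for the 10 genes, for IL-4 against untreated cells in WT and KO (left) and for KO against WT in M0 and M2 (right), where filled points passed at an edgeR adjusted p under 0.05. Tlr2 has the lowest values on the left (-4.67 and -3.60), and on the right 5 points are filled in M0 and 0 in M2.

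The third comparison tested whether the IL-4 response itself differed between the genotypes. Of the 10 genes 3 passed, against 3.24% of all genes, with Tlr2 higher (1 of 10, against 1.11% of all genes) and Tlr4 and Tlr8 lower (2 of 10, against 2.13% of all genes). The median difference of the 10 was -0.23 on the log2 scale, beside 0.01 over all genes. The log2 response of Tlr2 was -4.67 in WT and -3.60 in KO, a difference of 1.07 (SE 0.17, edgeR adjusted p = 0.00627). For Tlr4 the responses were 1.21 and 0.46, a difference of -0.74 (SE 0.09, edgeR adjusted p = 0.00257). For Tlr8 they were 2.08 and 1.41, a difference of -0.66 (SE 0.15, edgeR adjusted p = 0.0372).

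These differences, the IL-4 responses and the M0 comparison use the same untreated libraries and are not independent of each other. For all 3 genes the genotypes were apart in M0 and did not pass in M2. The calls of Tlr2 and Tlr4 held in all alternatives and without any 1 library. Tlr8 did not pass in 9 of 12 fits without 1 library (edgeR adjusted p from 0.0542 to 0.106), the exceptions being those without WT M0 replicate 1 or 3 or KO M2 replicate 3, and with limma on log2(TPM + 1) the adjusted p was 0.134. Tlr13 had responses of -0.63 in WT and -1.08 in KO, and the difference of -0.45 (SE 0.13, edgeR adjusted p = 0.0936) passed with the mouse as replicate block (edgeR adjusted p = 0.00372), with DESeq2 (adjusted p = 0.0237) and without WT M0 replicate 1 (edgeR adjusted p = 0.0197). The other 6 differences were -0.27 for Tlr6, -0.24 for Tlr7, 0.23 for Cd14, -0.22 for Tlr1, -0.11 for Tlr3 and -0.05 for Tlr9, with edgeR adjusted p of 0.134 to 0.937.

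The rest of the pathway was described with 60 genes listed by role, of which 58 were tested. IL-4 changed 35 of the 58 in WT (14 higher, 21 lower) and 32 in KO (13 higher, 19 lower), beside shares of 50.0% and 52.8% among all genes. KO M0 differed from WT M0 in 11 of 58 (3 higher, 8 lower, beside 9.78% of all genes) and KO M2 from WT M2 in 3 of 58, all higher (beside 2.68%). The IL-4 response differed between the genotypes in 8 of 58, all with a positive difference (beside 3.24%). The role counts that follow are to be read against the same shares. The median log2 fold change of the 58 was 0.01 in M0 and 0.01 in M2.

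The list of other mouse TLRs held 3 genes. Tlr5, the flagellin receptor, was tested and fell after IL-4, from a mean of 1.82 CPM to 0.182, 0.258 and 0.562 CPM in WT (log2 fold change -2.44, SE 0.39, edgeR adjusted p = 1.84e-04), and by 2.68 on the log2 scale in KO (edgeR adjusted p = 1.55e-05). Tlr5 was near the floor in M2, so the size of its fall is uncertain. Tlr11 and Tlr12 had no more than 0.091 CPM in any library and were not tested.

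Among 5 genes for co-receptors and ligand transfer, IL-4 changed 4 in WT (3 higher, 1 lower) and 3 in KO (2 higher, 1 lower), and none passed between the genotypes with edgeR in M0 or M2, where 0 and 1 had an unadjusted p under 0.05. Cd36, a scavenger receptor that assists TLR2 with TLR6, rose in WT from 3187 to 3880 CPM to 5586 to 6572 CPM (log2 fold change 0.77, SE 0.07, edgeR adjusted p = 2.22e-06). Ly96, the MD-2 partner of TLR4, had 7.63 to 9.39 CPM in WT M0 and 9.45, 10.7 and 11.04 CPM in WT M2 (log2 fold change 0.34, SE 0.10, edgeR adjusted p = 0.0134), a call that was lost without WT M0 replicate 1 or 2 (edgeR adjusted p = 0.0504 and 0.0516). In KO the value for Ly96 was -0.06 (SE 0.10, edgeR adjusted p = 0.637), and the difference of the responses did not pass (-0.40, edgeR adjusted p = 0.153). Ly86, the partner of the receptor encoded by Cd180, rose in KO from 11.3 to 12.7 CPM to 16.8 to 18.4 CPM (0.54, SE 0.16, edgeR adjusted p = 0.0107). In WT its groups overlapped (0.44, SE 0.16, edgeR adjusted p = 0.0409), and the call was lost in 8 of 12 fits without 1 library, at an edgeR adjusted p of up to 0.257 and a value of 0.20 without WT M2 replicate 1. Cd180, a TLR4 relative without a signalling domain, fell in both genotypes (log2 fold change -0.41 in WT and -0.62 in KO, edgeR adjusted p = 0.00677 and 3.13e-04).

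Of 10 genes for folding, transport and processing of TLRs, 2 passed in M0, 1 in each direction. Ctsl, a lysosomal protease that cleaves endosomal TLRs, was higher in KO (log2 fold change 0.25, SE 0.05, edgeR adjusted p = 0.0158). Lgmn, another such protease, was lower (-0.20, SE 0.05, edgeR adjusted p = 0.0369). Unc93b1, the chaperone that carries TLRs to endosomes, had 280 to 294 CPM in WT M0 and 283 to 304 CPM in KO M0 and did not pass (log2 fold change 0.02, SE 0.05, edgeR adjusted p = 0.863). IL-4 changed 3 genes of this role in WT (1 higher, 2 lower) and 5 in KO (2 higher, 3 lower). In WT the chaperone gene Hsp90b1 rose (0.22, edgeR adjusted p = 0.00818), and Cnpy4 (-0.36, edgeR adjusted p = 0.0109, but 0.0564 without WT M2 replicate 2) and Lgmn (-0.17, edgeR adjusted p = 0.0197, but 0.0563 to 0.0675 without WT M0 replicate 2 or 3 or WT M2 replicate 2) fell. In KO Cnpy4 (-0.42, edgeR adjusted p = 0.00306), the endosomal transporter gene Slc15a4 (-0.30, edgeR adjusted p = 0.00238) and Ctsl (-0.20, edgeR adjusted p = 0.00779) fell. Lgmn was higher in KO M2 than in KO M0 (0.14, edgeR adjusted p = 0.0428), a call lost in 7 of 9 alternatives and in 7 of 12 fits without 1 library. The difference of the Lgmn responses (0.31, SE 0.08, edgeR adjusted p = 0.0473) was lost in 10 of 12 fits without 1 library, all but those without WT M0 replicate 1 or KO M2 replicate 2 (edgeR adjusted p from 0.0670 to 0.123), and with RLE factors, no filter or thinned counts. Unc93b1 passed in KO (0.16, SE 0.05, edgeR adjusted p = 0.0195, but 0.0680 to 0.0744 without KO M0 replicate 2 or 3 or KO M2 replicate 1, 0.0549 with no filter and 0.194 with limma on log2(TPM + 1)) and, only with the mouse as replicate block, in WT (0.09, edgeR adjusted p = 0.154 without and 0.0455 with the block). With that block 4 genes of this role changed their call in WT.

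Of 8 adaptors, 2 were higher in KO M0 and none was lower. Wdfy1, a protein reported to recruit TRIF to TLR3 and TLR4, had 18.0, 18.4 and 15.7 CPM in WT M0 and 38.5, 39.3 and 56.5 CPM in KO M0 (log2 fold change 1.36, SE 0.18, edgeR adjusted p = 0.00103). This was the largest change among the pathway genes that passed in M0. The gene passed in M2 as well, where WT had 21.0, 18.5 and 19.1 CPM and KO 44.3, 45.2 and 69.0 CPM (1.44, SE 0.18, edgeR adjusted p = 0.00381). The third KO library was the highest in both treatments. Ticam2, the bridging adaptor between TLR4 and TRIF, was higher in KO M0 as well, with 8.15 to 9.08 CPM in WT and 11.5 to 12.0 CPM in KO (0.43, SE 0.10, edgeR adjusted p = 0.0171). Myd88 (log2 fold change -0.15, SE 0.06, edgeR adjusted p = 0.140) and Ticam1, which encodes TRIF (0.12, SE 0.07, edgeR adjusted p = 0.333), did not pass.

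After IL-4 the adaptors parted. Ticam1 rose in WT from 22.5 to 25.1 CPM to 36.2 to 43.6 CPM (log2 fold change 0.78, SE 0.07, edgeR adjusted p = 2.20e-06) and in KO by nearly the same value (0.76, SE 0.07, edgeR adjusted p = 1.78e-06). Myd88 fell in WT from 85.6 to 100.6 CPM to 73.4 to 80.0 CPM (-0.28, SE 0.06, edgeR adjusted p = 0.00185), and in KO its value of -0.11 did not pass (edgeR adjusted p = 0.131). The difference of the Myd88 responses did not pass either (0.17, edgeR adjusted p = 0.333). Scimp, a TLR adaptor at the membrane, had 0 to 0.184 CPM in the 6 M0 libraries and 2.98 to 4.33 CPM in the 6 M2 libraries, with edgeR adjusted p of 8.10e-08 in WT and 1.70e-07 in KO. Its M0 level was near 0, so Scimp entered the tests only through its M2 level and these p-values rest on that step. Sarm1 fell in WT from a mean of 0.925 to 0.459 CPM with edgeR (adjusted p = 0.0261) but did not pass with DESeq2 (adjusted p = 0.0524), limma or thinned counts, or in 5 of 12 fits without 1 library (edgeR adjusted p from 0.0609 to 0.0700, WT M0 replicate 2 or 3 or any 1 of the WT M2 libraries left out). Ticam2 rose in WT (0.30, SE 0.10, edgeR adjusted p = 0.0245), a call lost without WT M0 replicate 1 (edgeR adjusted p = 0.0799), WT M2 replicate 3 (0.0841) or WT M2 replicate 2, with thinned counts and with only the 2 groups. Tirap, which links MyD88 to TLR2 and TLR4, fell in KO (-0.29, SE 0.07, edgeR adjusted p = 0.00271). In all, 5 of 8 adaptors passed in WT (3 higher, 2 lower) and 3 in KO (2 higher, 1 lower).

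Of 15 kinases and ubiquitin ligases, 0 passed with edgeR between the genotypes in M0 or in M2, with 3 at an unadjusted p under 0.05 in each. IL-4 changed 6 in WT (1 higher, 5 lower) and 8 in KO (1 higher, 7 lower). Irak2, a kinase of the MyD88 complex, fell from 59.5 to 61.8 CPM to 24.9 to 28.2 CPM in WT (log2 fold change -1.18, SE 0.06, edgeR adjusted p = 8.71e-09) and by 0.84 on the log2 scale in KO (edgeR adjusted p = 1.37e-07). Peli1, a ubiquitin ligase that acts on IRAK proteins, fell by 0.60 in WT and by 0.67 in KO on that scale (edgeR adjusted p = 1.15e-06 and 2.76e-07). Ikbke, a kinase upstream of interferon regulatory factors, fell by 0.32 in WT (edgeR adjusted p = 0.00121). Traf3, a ubiquitin ligase of both adaptor branches, fell by 0.43 in KO (edgeR adjusted p = 0.00153) and by 0.31 in WT (edgeR adjusted p = 0.0148, but 0.0629 and 0.0573 without WT M0 replicate 1 and WT M2 replicate 3). Irak4 was the 1 gene of this role that rose, with log2 fold changes of 0.25 in WT and 0.40 in KO (edgeR adjusted p = 0.00156 and 2.41e-05). With limma on log2(TPM + 1) the WT value of Irak4 was 0.14 (adjusted p = 0.106).

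Of 7 transcription factors, 2 of the 4 NF-kappaB subunit genes in the list, Nfkb2 and Nfkb1, were lower in KO M0. Nfkb2 had 175, 183 and 167 CPM in WT M0 and 104, 109 and 98.1 CPM in KO M0, without overlap (log2 fold change -0.76, SE 0.07, edgeR adjusted p = 1.51e-04). Nfkb1 had 141, 148 and 142 CPM in WT M0 and 113.5, 115 and 115 CPM in KO M0 (-0.33, SE 0.06, edgeR adjusted p = 0.00851). The other 5 did not pass, among them the subunit genes Rela (0.00, edgeR adjusted p = 0.995) and Rel (0.09, edgeR adjusted p = 0.799). Irf7 was also among these 5 but passed with the replicate block. After IL-4, Nfkb1 and Nfkb2 went opposite ways, as Nfkb1 rose in WT to 381 to 420 CPM (1.47, SE 0.06, edgeR adjusted p = 1.64e-09) and Nfkb2 fell to 71.6 to 87.1 CPM (-1.10, SE 0.08, edgeR adjusted p = 8.66e-08). In KO the responses were 1.88 for Nfkb1 and -0.31 for Nfkb2. The difference of the responses was 0.42 for Nfkb1 (edgeR adjusted p = 0.0279) and 0.79 for Nfkb2 (edgeR adjusted p = 0.00363). That of Nfkb1 did not pass without WT M0 replicate 2, WT M2 replicate 1 or 3, any 1 of the KO M0 libraries or KO M2 replicate 3 (edgeR adjusted p from 0.0545 to 0.0814), nor with limma on log2(TPM + 1) (adjusted p = 0.133). Rel rose in WT (0.79, SE 0.17, edgeR adjusted p = 0.00185) and in KO (0.54, SE 0.17, edgeR adjusted p = 0.0150, but 0.0547 and 0.0679 without KO M0 replicate 1 and KO M2 replicate 2). Irf5, an interferon regulatory factor that acts with MyD88, rose by smaller amounts (0.34 in WT and 0.21 in KO, edgeR adjusted p = 2.61e-04 and 0.00635). IL-4 changed 6 of the 7 in WT (3 in each direction) and 4 in KO (3 higher, 1 lower).

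Of 12 inhibitors of the pathway, 5 were lower in KO M0, beside 4.27% of all genes, and 0 were higher. Their median log2 fold change was -0.19. Tnip1, a partner of the ubiquitin-editing enzyme encoded by Tnfaip3, had 167, 184 and 180 CPM in WT M0 and 118, 129 and 119 CPM in KO M0 (-0.54, SE 0.05, edgeR adjusted p = 1.77e-04). Nfkbie had 45.4, 49.7 and 56.9 CPM in WT against 36.4, 34.9 and 33.5 CPM in KO (-0.54, SE 0.09, edgeR adjusted p = 0.00299), and it encodes an inhibitor that holds NF-kappaB in the cytoplasm. Tnfaip3 had 78.1, 83.7 and 79.3 CPM in WT against 57.7, 57.8 and 57.3 CPM in KO (-0.48, SE 0.06, edgeR adjusted p = 7.07e-04). Nfkbia, a further inhibitor of the same kind as Nfkbie, was lower by a smaller amount (-0.26, SE 0.07, edgeR adjusted p = 0.0345), and the value was -0.15 without WT M0 replicate 3. The fifth was Nfkbib, named after its value was seen (-0.21, SE 0.06, edgeR adjusted p = 0.0495, and 0.0584 with a replicate block). Nfkbia, Tnfaip3 and Nfkb2 are textbook target genes of NF-kappaB, as are Rel and Nfkbiz, which did not pass in M0. The activity of NF-kappaB was not tested.

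Of the 11 calls in M0, 6 held in all alternatives and without any 1 library, namely Wdfy1, Nfkb1, Nfkb2, Tnfaip3, Tnip1 and Nfkbie. Those of Ctsl, Lgmn, Ticam2, Nfkbia and Nfkbib were lost without WT M0 replicate 2, KO M0 replicate 2 or KO M0 replicate 3, which left 6 in each case. Lgmn, Nfkbia and Nfkbib were lost in further fits, including those without WT M0 replicate 3 or KO M0 replicate 1 and those with only the 2 groups. Ticam2 and Nfkbib did not pass with limma on log2(TPM + 1) (adjusted p = 0.0516 for both).

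**Figure D4:**
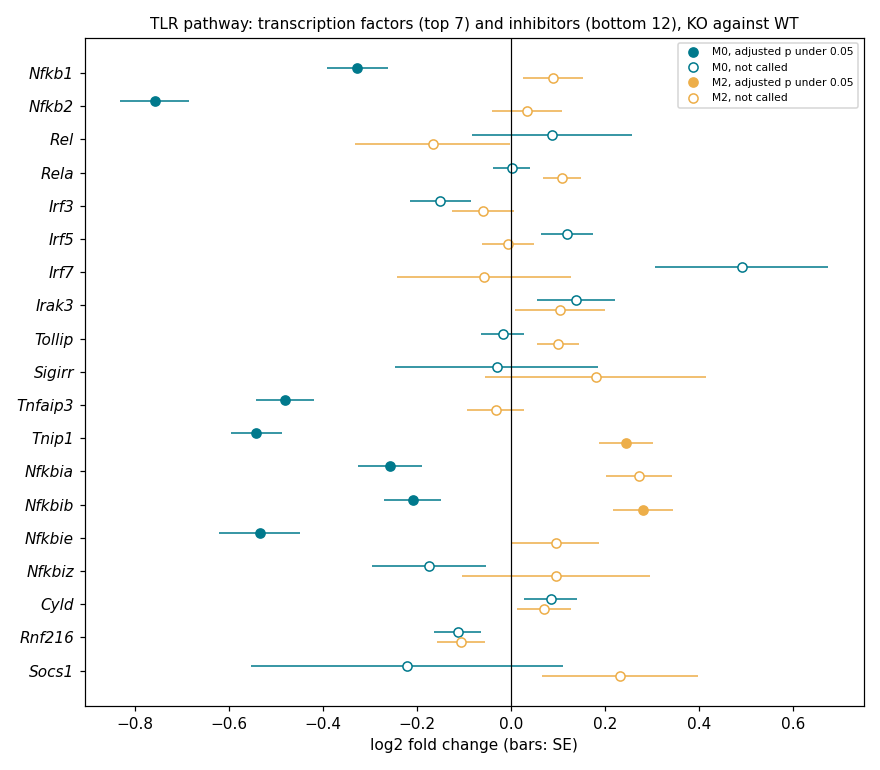
Log2 fold change with its SE between KO and WT for 7 transcription factors and 12 inhibitors of TLR signalling, in M0 and M2, where filled points passed at an edgeR adjusted p under 0.05. In M0 the 7 filled points are all below 0, with Nfkb2 lowest at -0.76, and in M2 the 2 filled points (Tnip1 and Nfkbib) are above 0.

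IL-4 changed 10 of the 12 inhibitors in WT (3 higher, 7 lower) and 8 in KO (3 higher, 5 lower). The WT count includes Tnfaip3 (0.16, edgeR adjusted p = 0.0417), lost in 6 of 9 alternatives and in 9 of 12 fits without 1 library, and Sigirr (-0.66, edgeR adjusted p = 0.0309), lost with only the 2 groups and without WT M0 replicate 2 or 3 or WT M2 replicate 1 or 2, with a value of -0.43 without WT M2 replicate 1. Socs1, an inhibitor of cytokine and TLR signalling, rose in WT from 1.87 to 2.45 CPM to 60.2 to 95.2 CPM (log2 fold change 5.13, SE 0.23, edgeR adjusted p = 2.20e-09). Nfkbiz, counted in this role although it encodes a nuclear regulator of NF-kappaB rather than a plain inhibitor, fell from 14.2 to 18.0 CPM to 1.28 to 1.73 CPM (-3.47, SE 0.16, edgeR adjusted p = 2.83e-09). Tnip1 and Nfkbia fell in WT by 1.65 and 1.44 on the log2 scale (edgeR adjusted p = 1.75e-10 and 4.60e-09) and in KO by 0.86 and 0.91 (edgeR adjusted p = 4.56e-08 and 2.50e-07). In KO, Socs1 rose by 5.58, Nfkbiz fell by 3.20 and Irak3, an inhibitory member of the IRAK family, fell by 1.46 on that scale (edgeR adjusted p = 9.59e-10, 2.65e-09 and 2.70e-08). Among all pathway genes, limma on TPM did not give the IL-4 calls of Ly86, Hsp90b1, Ticam2, Sarm1, Traf3, Irak4 and Tnfaip3 in WT or those of Unc93b1, Lgmn, Tirap, Map3k7, Rel and Irf5 in KO.

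The IL-4 responses of 5 of the 12 inhibitors differed between the genotypes, all with a positive difference. These were Tnip1 (0.79, SE 0.08, edgeR adjusted p = 0.00114), Nfkbie (0.63, SE 0.13, edgeR adjusted p = 0.0194), Nfkbia (0.53, SE 0.10, edgeR adjusted p = 0.0143), Nfkbib (0.49, SE 0.09, edgeR adjusted p = 0.0124) and, named after its value was seen, Tnfaip3 (0.45, SE 0.09, edgeR adjusted p = 0.0157). The call of Nfkbie was lost without WT M2 replicate 2 or KO M0 replicate 2 or 3 (edgeR adjusted p from 0.0511 to 0.0579), and that of Tnfaip3 without WT M0 replicate 2 (0.0563) and with limma on log2(TPM + 1) (adjusted p = 0.0950). As for Tlr2, the untreated libraries enter both this difference and the M0 comparison. In M2, Tnip1 (0.24, SE 0.06, edgeR adjusted p = 0.0431) and Nfkbib (0.28, SE 0.06, edgeR adjusted p = 0.0403) were higher in KO. Each of these M2 calls was lost in most fits without 1 library, at an edgeR adjusted p of up to 0.131 for Tnip1 (without WT M2 replicate 2) and 0.121 for Nfkbib (without WT M2 replicate 1). Neither passed with limma on log2(TPM + 1) (adjusted p = 0.166 and 0.0707) or with only the 2 groups (edgeR adjusted p = 0.0741 and 0.0988).

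For each gene of the set the most similar of 9746 other genes was taken as the 1 with the highest Pearson correlation of log2 CPM over the 12 libraries. The 12 points fall into M0 and M2, so these values mostly reflect the step between the treatments and are given as a description. Tlr2 was closest to Slc39a14, a zinc and iron transporter (r = 0.996), Cd14 to Tifa (r = 0.998), Tlr8 to Fndc3a (r = 0.997), Tlr1 to Il31ra (r = 0.996) and Tlr13 to Clip1 (r = 0.996). Il31ra had a mean of 0 CPM in WT M0 and 0.0122 CPM in KO M0 against 13.8 and 12.7 CPM in M2, so it entered this comparison only through its M2 level and its r rests on that step. Tlr4 was closest to Gvin1 (r = 0.988), Tlr7 to Rasa3 (r = 0.988), Tlr6 to Rnf144b (r = 0.980), Tlr9 to Msantd2 (r = 0.952) and Tlr3 to Cntrl (r = 0.909). Gvin1 had mean levels of 45.7 (WT) and 78.9 (KO) CPM in M0 and of 127 (WT) and 110.3 (KO) CPM in M2, the order that Tlr4 has. Slc39a14 had 111.8, 93.7, 44.7 and 43.2 CPM in these 4 groups, so its steps were smaller than those of Tlr2.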

How the data were processed

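BMMs were profiled by poly(A) RNA-Seq with single-end reads of 75 nt. Per the study's methods, reads were aligned to GRCm38/mm10 with the Grape-nf pipeline, and the directional kit marks strand, but the strand setting of the counting and the annotation release are not given in the sources used here. FastQC 0.11.2 and DESeq2 1.40.2 are named in the submitters' processing notes. The authors' tables, 1 per library, hold expected counts as deposited, which divide a read matching several genes among them, the posterior standard deviation of the count, another measure of that division, and TPM. The authors' DESeq2 tables hold their own fold changes and p-values and were used only to pair gene IDs with symbols.

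Expected counts were rounded, filtered with filterByExpr (minimum count 10) and fitted with edgeR 4.0.16 in R 4.3.3 (TMM, quasi-likelihood test, all 12 libraries in 1 model with a term for each group, biological coefficient of variation 8.08%). In every comparison p was adjusted over 12846 genes (Benjamini-Hochberg), and genes passed at an adjusted p under 0.05. SEs were derived from the F statistic. DESeq2 1.42.0 and limma 3.58.1 served as alternatives. In simulated counts with a log2 change of 1, edgeR called 85% of changed genes between genotypes in M0 and 81% in M2, 80% for the IL-4 response of either genotype and 75.5% for the difference of the responses. Smaller changes, such as those of the 10 genes between the genotypes in M2, were not simulated, and these shares do not apply to them.

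Groups and replicate numbers were taken from the labels. Nothing in the labels says that same-numbered libraries come from 1 mouse. Their deviations from the group means correlated between M0 and M2 (0.331, 0.103 and 0.364 in WT, 0.166, 0.160 and 0.209 in KO). The number was therefore treated as the mouse in the replicate block, which was an alternative. The main fit had no such term, so its IL-4 tests and tests of the difference left this pairing out. Between the genotypes these correlations were -0.068 to 0.040, and the number did not pair the samples. The study gives 3 mice per group for the RNA-Seq.

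The members and gene lists were chosen with earlier results of these data known. All members were named, and in each role of the pathway the called genes with the largest change, up to 4 of them, with Ly96, Myd88, Ticam1 and Unc93b1. Motifs and coordinates come from RefSeq GRCm38.p6 promoters and the GENCODE annotation of GRCm38.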

Additional observations from a re-analysis of the deposited data

Results flagged for a closer look

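The IL-4 response differed between WT and KO, by the test of the difference itself, for 3 genes of the set. The difference on the log2 scale, KO minus WT, was 1.07 for Tlr2, -0.74 for Tlr4 and -0.66 for Tlr8 (edgeR adjusted p = 0.00627, 0.00257 and 0.0372). Among the pathway genes the difference was 0.79 for Nfkb2, 0.79 for Tnip1, 0.63 for Nfkbie, 0.53 for Nfkbia, 0.49 for Nfkbib, 0.45 for Tnfaip3, 0.42 for Nfkb1 and 0.31 for Lgmn (edgeR adjusted p from 0.00114 to 0.0473). The difference of Lgmn was lost in 10 of 12 fits without 1 library (edgeR adjusted p up to 0.123). The direction opposes that of the M0 difference for each of these 11 genes, and both values contain the same untreated libraries. The causes were not tested. With 3 libraries per group, no formal test for outlying libraries was made, and the fits without 1 library are given with the results.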

How the results depend on the processing

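Over 1040 combinations of a gene of the set, a comparison and an alternative, the call was unchanged in 1005, lost in 29 and gained in 6, and no called direction was reversed. Genes that passed in neither fit count as unchanged. All 29 losses were of Tlr6 or Tlr8 in M0 or of the difference of the responses for Tlr8. All 6 gains were of Tlr13, in M0 or for that difference. For pathway genes that passed, 1671 of 1861 calls were kept, 190 were lost and 0 were reversed. The number of genes of the set called between KO and WT in M0 (5) was 3 with limma on log2(TPM + 1), with limma on log2(TPM + 0.1) and with only the libraries of the 2 groups, 4 with thinned counts, 6 with DESeq2 and with no filter on low counts (which add Tlr13), and 3 to 5 without 1 library. For pathway genes in M0 (11) it was 6 to 12 without 1 library. Pathway genes in M2 (3) numbered 5 with DESeq2, 1 with limma at either pseudocount and 1 to 5 without 1 library, with 5 only without WT M0 replicate 3. For the difference of the responses, 2 to 4 genes of the set and 5 to 8 pathway genes were called without 1 library, with 5 without WT M0 replicate 2 or KO M0 replicate 2 or 3.

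With the replicate block the set had 4 genes called for the difference of the responses (3 without it) and the pathway 11 (8 without it). It also changed the calls of Irf7 in M0 (adjusted p from 0.116 to 0.0452), of Ticam2, Pik3ap1 and Irak2 for the difference, and of 6 and 7 pathway genes for IL-4 in WT and KO. It changed no other call of the genes examined here, apart from those of Tlr13 and Nfkbib.

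Over all genes, the count called was 1256 in M0 (752 and 700 with limma at pseudocounts 1 and 0.1), 344 in M2 (702 with DESeq2, 70 and 57 with limma, 165 with only the 2 groups) and 416 for the difference (820 with DESeq2, 113 with limma, 1003 with the replicate block). For IL-4 limma called 2277 higher and 3432 lower in WT, beside 3202 and 3226, and 2290 higher and 3555 lower in KO, beside 3438 and 3346. Without 1 library the M0 count was 461 to 1461, with 461 without WT M0 replicate 2 and 745, 528 and 563 without KO M0 replicates 1, 2 and 3. The M2 count was 25 to 761, with 761 without WT M0 replicate 3, 25 without KO M2 replicate 3, 34 without WT M2 or KO M2 replicate 2, and 172 to 193 without WT M0 replicate 2, WT M2 replicate 1 or any 1 KO M0 library. The count for the difference was 183 to 643, with 643 without WT M0 replicate 1, and 183 to 267 without replicate 2 of WT M0, WT M2 or KO M2, KO M2 replicate 3 or any 1 KO M0 library. The shares over all genes printed beside the genes of the set move with these counts. Tlr9 had the fewest counts of the set, 54 to 220 per library, and thinning to the smallest total lost the M0 call of Tlr6 (adjusted p = 0.119).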

Other observations

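Summed over Tlr1, Tlr2, Tlr4 and Tlr6, the surface receptors had 176, 199 and 184.5 TPM in WT M0 and 159, 171.5 and 164 TPM in WT M2, while Tlr2 gave way to Tlr4 and Tlr1 within that sum. In KO the sums were 152, 146 and 141.5 TPM in M0 and 138, 154.5 and 149.9 TPM in M2. The receptors for nucleic acids summed to 279, 242 and 204 TPM in WT M0 and 286.5, 292 and 304 TPM in KO M0, and to 255, 254 and 241 TPM in WT M2 and 199.6, 241 and 244 TPM in KO M2. The M0 groups did not overlap in either sum, with surface receptors lower and nucleic acid receptors higher in KO. The lower surface sum came from Tlr2 (means of 125.5 TPM in WT M0 and 63.2 TPM in KO M0), as the means of Tlr1 (17.2 and 17.6 TPM), Tlr4 (36.7 and 56.9 TPM) and Tlr6 (7.06 and 8.99 TPM) were not lower in KO. Most of the nucleic acid sum was Tlr13 (178 and 214 TPM), which did not pass the edgeR test in M0. These sums were formed after the values were known and are given without a test.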
